A study of Mus musculus with 6 samples.

Results

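The genes described here encode the enzymes that cut, inhibit the cutting of, or crosslink the extracellular matrix. They were taken from the 17097 genes measured by a probe set with a single gene symbol, by their symbols alone: matrix metalloproteinases (Mmp), their tissue inhibitors (Timp), ADAM and ADAMTS metalloproteinases, the lysyl oxidases (Lox and Loxl1 to Loxl4), the lysyl hydroxylases Plod1 to Plod3, the procollagen C-proteinase enhancers Pcolce and Pcolce2, and cathepsin K (Ctsk). This gave 72 genes with 124 probe sets (an Affymetrix probe set reads 1 stretch of a transcript), of 45037 probe sets on the array, and the brightest of a gene's probe sets, by its mean over the 6 arrays, stood for the gene. The 6 arrays were 3 for WT and 3 for Klf3-/-. Each took RNA of cells sorted as eosinophils from the stromal vascular fraction (SVF) of inguinal subcut adipose tissue (AT) of 1 mouse. All mice were male FVB/NJ littermates from heterozygous crosses, aged 12 weeks, untreated, fed chow and housed at 22 °C. Klf3-/- mice lack the transcriptional repressor KLF3 in every tissue, so any cell in the sorted sample carried the deletion. The comparison asks whether the matrix enzyme genes differ between the sorted samples of the 2 genotypes, whose eosinophil content is described below.

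Collagen is secreted as procollagen, whose end pieces are clipped off by BMP1-type proteinases with the help of the PCOLCE proteins. Lysyl hydroxylases act on collagen inside the cell, and lysyl oxidases then oxidise lysines outside it so that collagen and elastin fibres are crosslinked. MMPs degrade the fibres, ADAMTS proteins cut proteoglycans and procollagen, ADAMs shed proteins from the cell surface, and TIMPs block many of these proteases. In AT the fibroblast-like stromal cells are known as the main builders of matrix, and macrophages as a source of several MMPs and cathepsins.

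Values are log2 intensities after quantile normalisation, which gives all arrays the same distribution. Before it, array medians ranged from 30.3 to 58.7 (1.94-fold) and overlapped between genotypes. Within each replicate number the Klf3-/- median was the higher (46.7 over 36.8, 58.7 over 56.5 and 35.4 over 30.3). Background was set at 5.10 (34.2 on the linear scale), the 95th percentile of the mean level of 44 olfactory receptor probe sets. Against the label of the sort, 6 of 8 measured eosinophil markers lay below this level (Siglecf with a mean of 4.36, Ccr3, Epx, Prg2, Il5ra and Alox15), and Prg3 (5.20) and Ltc4s (5.13) were barely above it. All 13 stromal fibroblast markers and all 11 macrophage markers lay above it. So did all dendritic cell and MHC class II (9), endothelial (7), mural (5), mast cell (5), and T and B cell (5) markers. The same held for 5 of 6 neutrophil and 4 of 5 epithelial markers, but for only 1 of 4 adipocyte markers. Of 6 probe sets for Klf3, 1 was lower (log2 fold change -1.01) and 5 were higher (0.69 to 2.83) in Klf3-/-, each without overlap and none past the adjusted threshold. Which of them lie in the deleted part was not known here. The libraries are therefore named by their labels throughout. In these bulk samples fewer cells of a type and less RNA per cell cannot be told apart.

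No gene of the 72 differed between genotypes past an adjusted p of 0.05 in the limma fit, as was so for 0% of all genes, and the smallest adjusted p was 0.200 for Pcolce. Log2 fold changes were positive for both Pcolce genes, all 5 lysyl oxidases and all 3 lysyl hydroxylases, though those of Loxl3 (0.06), Plod1 (0.08) and Plod3 (0.23) were small, and those of all 13 stromal fibroblast markers were positive as well (median 0.98). The MMP, ADAM and ADAMTS families held fold changes of both signs. At an unadjusted limma p under 0.05, 7 of 72 genes were higher in Klf3-/- (9.72%, against 3.61% of all genes) and 2 were lower (2.78%, against 2.47%). Without overlap between the 3 arrays of each genotype, 6 were higher (8.33%, against 4.84% of all genes) and 5 lower (6.94%, against 6.55%). The shares of lower genes were thus near those of the background. On the values as deposited, 5 genes were higher without overlap (Pcolce, Adamts5, Plod3, Timp2 and Adam15, the last named after its values were seen). Of these, only Pcolce and Adamts5 were also higher without overlap after normalisation. Mmp12 was the 1 gene lower as deposited. The shares of all genes without overlap were not counted on that scale. After normalisation, the number higher without overlap was 18 without WT replicate 3 and 16 without Klf3-/- replicate 1. The number lower was 11 without WT replicate 2 and 8 without WT replicate 1 or Klf3-/- replicate 3. Here only 5 arrays had to be separated, and the matching shares of all genes were not counted. The number higher at an unadjusted p under 0.05 was 11 without Klf3-/- replicate 1. There 1610 of all 45037 probe sets were higher, beside 1398 in the main fit. Over the 72 genes the median log2 fold change was 0.08 and 56.9% were positive, beside -0.04 and 44.8% over all genes.

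**Figure D1:**
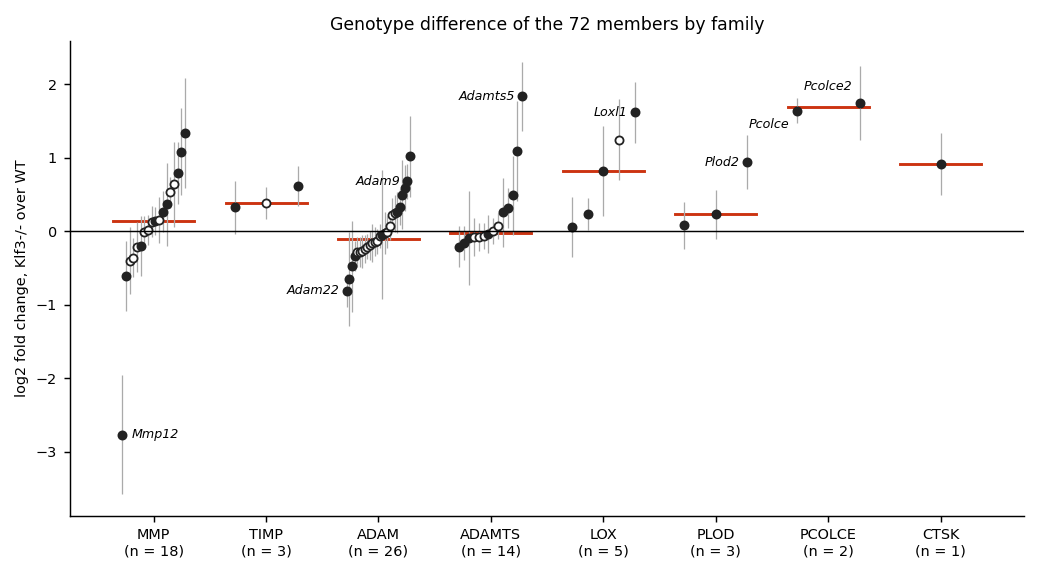
Log2 fold change (Klf3-/- over WT, 3 mice each) of the 72 genes by family, with bars for the standard error, filled points for genes above background, open points for genes below it and red lines for family medians. Mmp12 at -2.77 is the farthest point below 0, and all LOX, PLOD and PCOLCE points lie above 0.

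Of the 72 genes, 42 had a mean above background, with Loxl4 (5.10) and Adamts7 (5.11) at its edge. The other 30 were 9 Mmp, 14 Adam, 5 Adamts genes, Timp1 and Loxl2. Many of these dim Adam genes are known for their roles in sperm. Among the 30 dim genes 12 fold changes were positive and 18 negative, with a median of -0.06. Mmp16 (0.53) was higher without overlap, and Adam26a (-0.28), Adam1b (-0.21) and Adam7 (-0.14) were lower without overlap, all at levels not above background. More than 1 probe set was present for 34 genes, and 18 of these had several above background. In 15 of the 18 they gave fold changes of the same sign, and in Adam11, Adam19 and Adamts10 of opposite signs.

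The clearest separation was that of Pcolce, the enhancer of procollagen C-terminal processing. Its log2 intensities were 7.73, 7.69 and 7.66 in WT mice 1 to 3 and 9.30, 9.44 and 9.27 in Klf3-/- mice 1 to 3. The 3 values of each genotype lay close together and the genotypes were 1.54 apart at their nearest. Means were 7.69 ± 0.03 in WT and 9.34 ± 0.09 in Klf3-/- (SD, n = 3 mice), a 3.12-fold higher level (log2 fold change 1.64, SE 0.17, limma adjusted p = 0.200, unadjusted p = 2.04e-05). By exact permutation (two-sided) p was 0.1, which 3 against 3 mice cannot go below. The deposited intensities did not overlap either, at 126 to 305 in WT and 451 to 1087 in Klf3-/-. Leaving out each array in turn gave log2 fold changes of 1.59 to 1.68. The smallest limma adjusted p of any of the 72 genes was 0.262 to 0.963 in those fits, highest without WT replicate 1.

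Pcolce2, the second enhancer of the pair, had log2 intensities of 7.45, 8.63 and 8.97 in WT and 10.01, 10.89 and 9.38 in Klf3-/-. All Klf3-/- arrays were above all WT arrays, but the spread within each genotype was wide, with WT mouse 1 far below the other two. The means were 8.35 ± 0.80 and 10.09 ± 0.76 (SD, n = 3 mice), giving a log2 fold change of 1.74 with SE 0.50 and a limma adjusted p of 0.854. As deposited, the genotypes overlapped, since WT mouse 2 (614) exceeded Klf3-/- mouse 3 (489).

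The promoters of both Pcolce genes are shown because KLF3 is known to bind CACCC boxes and these genes had the largest median difference of any family. Each window runs from 250 bases before to 50 bases after the RefSeq start (300 bases, build GRCm38.p6), written 5′ to 3′ on the gene's strand. Capitals mark CACCC, or GGGTG where the box is on the other strand. Pcolce lies at chr5:137611355-137611654 on the minus strand and Pcolce2 at chr9:95637378-95637677 on the plus strand.
Pcolce: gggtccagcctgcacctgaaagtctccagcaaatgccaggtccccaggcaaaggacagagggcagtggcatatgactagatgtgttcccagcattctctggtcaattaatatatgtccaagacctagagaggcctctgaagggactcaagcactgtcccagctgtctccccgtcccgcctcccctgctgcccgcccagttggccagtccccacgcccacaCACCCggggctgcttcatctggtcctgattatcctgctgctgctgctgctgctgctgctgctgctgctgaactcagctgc
Pcolce2: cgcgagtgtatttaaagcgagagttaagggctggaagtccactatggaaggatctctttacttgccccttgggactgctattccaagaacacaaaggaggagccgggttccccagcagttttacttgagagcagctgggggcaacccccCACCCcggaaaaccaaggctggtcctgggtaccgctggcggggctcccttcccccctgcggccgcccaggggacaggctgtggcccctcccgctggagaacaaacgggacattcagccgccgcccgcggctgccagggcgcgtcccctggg
Each window holds 1 CACCC box, starting at position -30 from the start in Pcolce and -101 in Pcolce2. Both also hold the GC box GGGCGG, 1 in Pcolce and 2 in Pcolce2, read from either strand. The letters CACCC are common: 57.5% of all 32851 windows in the table hold them on either strand, and 82.6% of the 46 windows found for 41 of the 72 genes. GGGCGG was present in 35.7% of all windows and 45.7% of those of the genes described here. No binding was measured in these samples, so a box is only a match of letters.

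Loxl1, a lysyl oxidase known for its part in elastic fibres, had log2 intensities of 6.66, 7.55 and 7.38 in WT and 8.98, 9.47 and 7.99 in Klf3-/-. The genotypes did not overlap, with Klf3-/- mouse 3 nearest to WT. The means were 7.20 ± 0.47 and 8.81 ± 0.75 (SD, n = 3 mice), 3.07-fold apart (log2 fold change 1.62, SE 0.42, limma adjusted p = 0.801). Its dimmer second probe set gave 0.76 with overlap, and the deposited intensities overlapped. Lox, which starts the crosslinking of collagen and elastin, gave 7.47, 6.98 and 8.27 in WT and 7.61, 9.79 and 7.77 in Klf3-/-. One array, that of Klf3-/- mouse 2, stood high, and the log2 fold change of 0.82 (SE 0.61) was 0.12 without it. Loxl3 (0.06) and Loxl4 (0.23) were close to 0. Loxl2 (1.25) was below background.

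Plod2, the lysyl hydroxylase of collagen telopeptides, was near background in WT at 5.29, 5.37 and 5.65, and had 5.57, 7.01 and 6.56 in Klf3-/-. Klf3-/- mouse 1 lay within the WT range and the other two were above it. The log2 fold change was 0.94 with SE 0.37 (means 5.44 ± 0.19 and 6.38 ± 0.74, SD, n = 3 mice, limma adjusted p = 0.883), and without Klf3-/- replicate 2 it was 0.61. Plod1, which hydroxylates lysines of the collagen helix, gave 8.96, 8.04 and 8.77 in WT and 8.74, 8.23 and 9.03 in Klf3-/-, and Plod3, which also adds sugars to those lysines, gave 8.39, 7.39 and 8.05 against 8.04, 7.81 and 8.67. In both the genotypes overlapped, with log2 fold changes of 0.08 and 0.23 whose sign turned without WT replicate 2 (-0.19 and -0.04).

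**Figure D2:**
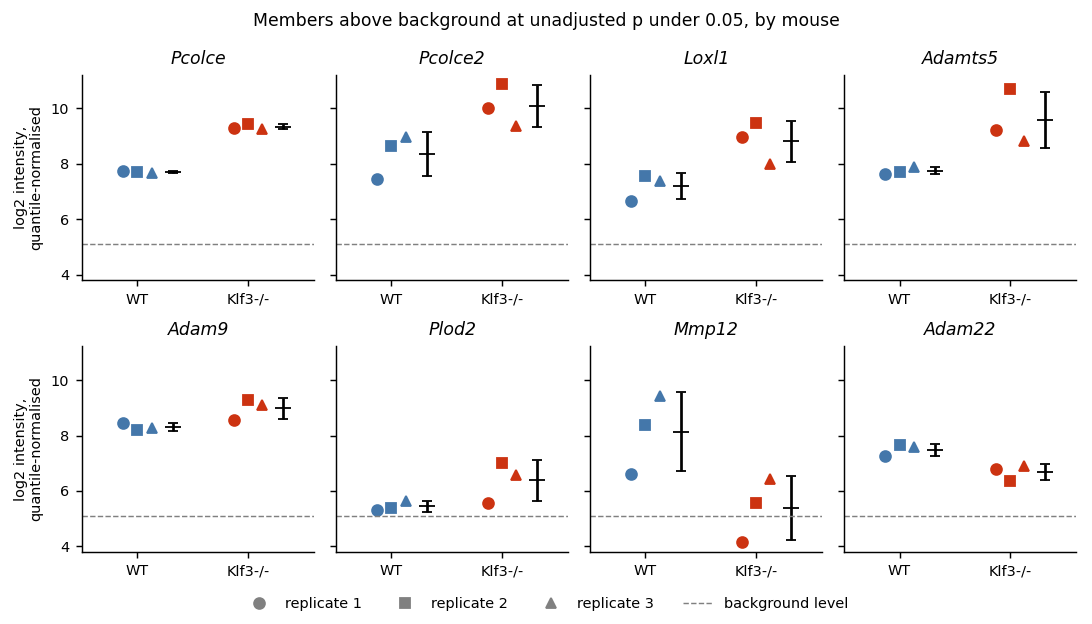
Log2 intensity of the 8 genes above background at an unadjusted p under 0.05, 1 point per mouse with replicates 1 to 3 as circle, square and triangle, and mean ± SD of 3 mice in black. The dashed line is background at 5.10. Pcolce has the narrowest spread, Plod2 is the 1 gene whose genotypes overlap, and Mmp12 and Adam22 are lower in Klf3-/-.

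Among the 18 Mmp genes, 11 fold changes were positive and 7 negative, with a median of 0.14, and 9 genes were above background. Mmp12, the macrophage elastase, had the largest difference of all 72 genes and it was towards lower levels in Klf3-/-. Its log2 intensities were 6.61, 8.39 and 9.44 in WT and 4.15, 5.56 and 6.43 in Klf3-/-. The highest Klf3-/- array was 0.18 under the lowest WT array, and Klf3-/- mouse 1 was below background. Means were 8.14 ± 1.43 and 5.38 ± 1.15 (SD, n = 3 mice), 6.80-fold lower in Klf3-/- (log2 fold change -2.77, SE 0.81, limma adjusted p = 0.854, exact two-sided permutation p = 0.1). As deposited the intensities were 83.8, 517 and 422 in WT and 18.4, 65.6 and 67.1 in Klf3-/-, without overlap. Within replicates 1, 2 and 3 the difference was -2.46, -2.83 and -3.01, a narrow range beside the spread within each genotype. Leaving out 1 array moved the log2 fold change between -3.54 (without WT replicate 1) and -2.15 (without Klf3-/- replicate 1). Mmp12 was the only gene of the 72 that was lower without overlap on the deposited scale.

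Mmp12 has 2 start sites in the RefSeq table, and both windows are shown since they differ in the motifs they hold. They lie at chr9:7344147-7344446 and chr9:7347124-7347423, both on the plus strand of GRCm38.p6, and capitals again mark CACCC.
Mmp12 upstream start: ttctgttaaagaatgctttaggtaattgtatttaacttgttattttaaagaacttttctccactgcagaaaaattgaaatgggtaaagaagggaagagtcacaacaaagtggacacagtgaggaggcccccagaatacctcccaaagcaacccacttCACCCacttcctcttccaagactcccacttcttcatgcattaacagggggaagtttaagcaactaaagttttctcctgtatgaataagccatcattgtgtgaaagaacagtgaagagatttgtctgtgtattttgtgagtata
Mmp12 downstream start: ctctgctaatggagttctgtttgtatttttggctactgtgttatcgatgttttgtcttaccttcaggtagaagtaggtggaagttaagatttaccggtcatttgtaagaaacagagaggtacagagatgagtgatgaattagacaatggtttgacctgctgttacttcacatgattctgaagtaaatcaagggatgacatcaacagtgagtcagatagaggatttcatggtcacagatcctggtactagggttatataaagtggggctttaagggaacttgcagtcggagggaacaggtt
The upstream window holds 1 CACCC box, at position -93, and the downstream window none. The downstream window holds 1 TATAAA, at position 5 and thus after the annotated start, and, at position -44, 1 AP-1 type motif, TGANTCA. The latter was present in 7.81% of all windows and 23.9% of those of the genes described here, and the former in 13.6% and 26.1%.

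Mmp12 is one of 9 measured Mmp genes that RefSeq places on chromosome 9, in the order Mmp13, Mmp12, Mmp1b, Mmp3, Mmp1a, Mmp10, Mmp8, Mmp20 and Mmp7. In this row only Mmp12 and Mmp3 were above background. Mmp3, stromelysin 1, named here after its values were seen, gave 4.83, 6.52 and 6.97 in WT and 6.90, 8.90 and 6.53 in Klf3-/-. Its log2 fold change of 1.34 (SE 0.75) had the opposite sign to that of Mmp12, and its genotypes overlapped. The other 7 ranged from -0.36 for Mmp7 to 0.64 for Mmp8.

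The gelatinase Mmp9 had 9.21, 8.93 and 9.48 in WT and 9.21, 9.96 and 11.70 in Klf3-/-. Klf3-/- mouse 3 stood far above the rest and mouse 1 was level with WT mouse 1, for a log2 fold change of 1.09 (SE 0.59) that was 0.38 without mouse 3. A second, dimmer Mmp9 probe set gave 2.20 without overlap. The other gelatinase, Mmp2, had 9.19, 9.09 and 9.62 in WT and 9.56, 11.07 and 9.64 in Klf3-/-. Here mouse 2 was the high one, and the log2 fold change of 0.79 (SE 0.42) became 0.30 without it. Mmp14, the membrane MMP that activates the Mmp2 product, differed by 0.27 (SE 0.28). By the brightest probe set, none of the 3 had a limma adjusted p under 0.90, and the dimmer Mmp9 probe set had 0.868.

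The 3 Timp genes all had positive fold changes. Timp2, which inhibits MMPs and also takes part in the activation of pro-MMP2, gave 11.35, 10.82 and 11.61 in WT and 11.60, 12.23 and 11.79 in Klf3-/-. Klf3-/- mouse 1 was just under WT mouse 3, and the other two were above all WT mice (log2 fold change 0.61, SE 0.28, limma adjusted p = 0.910). The other 4 Timp2 probe sets gave 0.62 to 0.89, 3 of them without overlap. Timp3, the matrix-bound inhibitor of ADAM17 and ADAMTS enzymes, gave 9.72, 8.96 and 10.37 in WT and 10.23, 9.75 and 10.04 in Klf3-/-, so that WT spanned the whole Klf3-/- range. Its log2 fold change of 0.33 (SE 0.36) was -0.04 without WT replicate 2. Timp1 was below background (0.39).

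The ADAM family leaned the other way, with 9 positive and 17 negative fold changes and a median of -0.10, but 14 of its 26 genes were below background. Among the 12 above it, 6 were positive and 6 negative. Adam22, a membrane protein without protease activity that is known as a receptor in neurons, had 7.25, 7.66 and 7.58 in WT and 6.80, 6.36 and 6.90 in Klf3-/-. All Klf3-/- mice were below all WT mice, by 0.35 at the nearest. Means were 7.49 ± 0.22 and 6.69 ± 0.29 (SD, n = 3 mice), 1.75-fold lower in Klf3-/- (log2 fold change -0.81, SE 0.22, limma adjusted p = 0.844), and a second probe set gave -0.56 with overlap. Its deposited intensities overlapped. Adam9, a sheddase of cell surface proteins, had 8.46, 8.19 and 8.27 in WT and 8.57, 9.30 and 9.10 in Klf3-/-. Klf3-/- mouse 1 was close to the WT mice and mice 2 and 3 were clearly higher, so that the genotypes did not overlap. Means were 8.31 ± 0.14 and 8.99 ± 0.38 (SD, n = 3 mice, log2 fold change 0.68, SE 0.24, limma adjusted p = 0.868). As deposited, the genotypes of Adam9 overlapped, since WT mouse 2 (449) exceeded Klf3-/- mice 1 (411) and 3 (401).

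The promoter of Adam22, the other gene above background that was lower without overlap, lies at chr5:8368111-8368410 on the minus strand and holds 4 CACCC boxes, in capitals.
Adam22: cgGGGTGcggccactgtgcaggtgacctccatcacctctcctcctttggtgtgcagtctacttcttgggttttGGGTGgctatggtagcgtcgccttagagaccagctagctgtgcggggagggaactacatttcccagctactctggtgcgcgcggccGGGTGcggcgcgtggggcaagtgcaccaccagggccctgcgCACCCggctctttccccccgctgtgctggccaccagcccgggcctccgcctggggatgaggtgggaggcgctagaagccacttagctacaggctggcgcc
Adamts5, Loxl1, Adam9 and Plod2 are named without a sequence.

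The main sheddases showed small differences. Adam10 had 9.39, 8.84 and 9.72 in WT and 9.61, 9.30 and 9.82 in Klf3-/- (log2 fold change 0.26, SE 0.28). Adam17, which releases TNF and is named here after its values were seen, differed by -0.33 (SE 0.21) with overlap. Its further probe sets, also above background, gave -0.31 without overlap and -0.32 with overlap. Adam23, a relative of Adam22 that also lacks protease activity, had 9.26, 10.92 and 8.33 in WT and 9.08, 9.29 and 8.19 in Klf3-/-. WT mouse 2 stood apart from all others, and the log2 fold change of -0.65 (SE 0.64) was 0.05 without it.

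Of the 14 Adamts genes, 7 fold changes were positive and 7 negative, with a median of -0.02. Adamts5, the main aggrecan- and versican-cutting ADAMTS in several tissues, stood out. It had 7.63, 7.72 and 7.89 in WT and 9.22, 10.71 and 8.81 in Klf3-/-. The WT mice were close together and all Klf3-/- mice above them, with mouse 2 highest. Means were 7.75 ± 0.13 and 9.58 ± 1.00 (SD, n = 3 mice), 3.57-fold higher in Klf3-/- (log2 fold change 1.83, SE 0.46, limma adjusted p = 0.781), and 1.27 without Klf3-/- replicate 2. As deposited the values were also without overlap, at 146 to 314 in WT and 326 to 2426 in Klf3-/-. Both other Adamts5 probe sets above background gave 1.61 and 1.80, each without overlap. Adamts1, another proteoglycan-cutting member, had 8.55, 6.41 and 8.29 in WT and 8.39, 8.25 and 8.08 in Klf3-/-. Apart from the low WT mouse 2 the values were alike, and the log2 fold change of 0.49 (SE 0.53) turned to -0.18 without it.

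Ctsk, a cathepsin that cuts triple-helical collagen, had 8.07, 8.59 and 9.24 in WT and 8.91, 10.27 and 9.47 in Klf3-/-. The genotypes overlapped, as WT mouse 3 exceeded Klf3-/- mouse 1 (log2 fold change 0.91, SE 0.42, limma adjusted p = 0.910), and without Klf3-/- replicate 2 the value was 0.55.

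Across the 42 genes above background the arrays were not equal. Klf3-/- mouse 2 was the highest array for 19 genes and the other 5 arrays for 2 to 7 each. The lowest array was WT mouse 2 for 17 genes and WT mouse 1 for 13. Without Klf3-/- replicate 2 the median log2 fold change of the 72 genes was 0.08, and at an unadjusted limma p under 0.05 there were 5 higher and 2 lower genes. Over all 45037 probe sets the same fit gave a median of -0.02, with 1351 higher and 908 lower at that p.

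**Figure D3:**
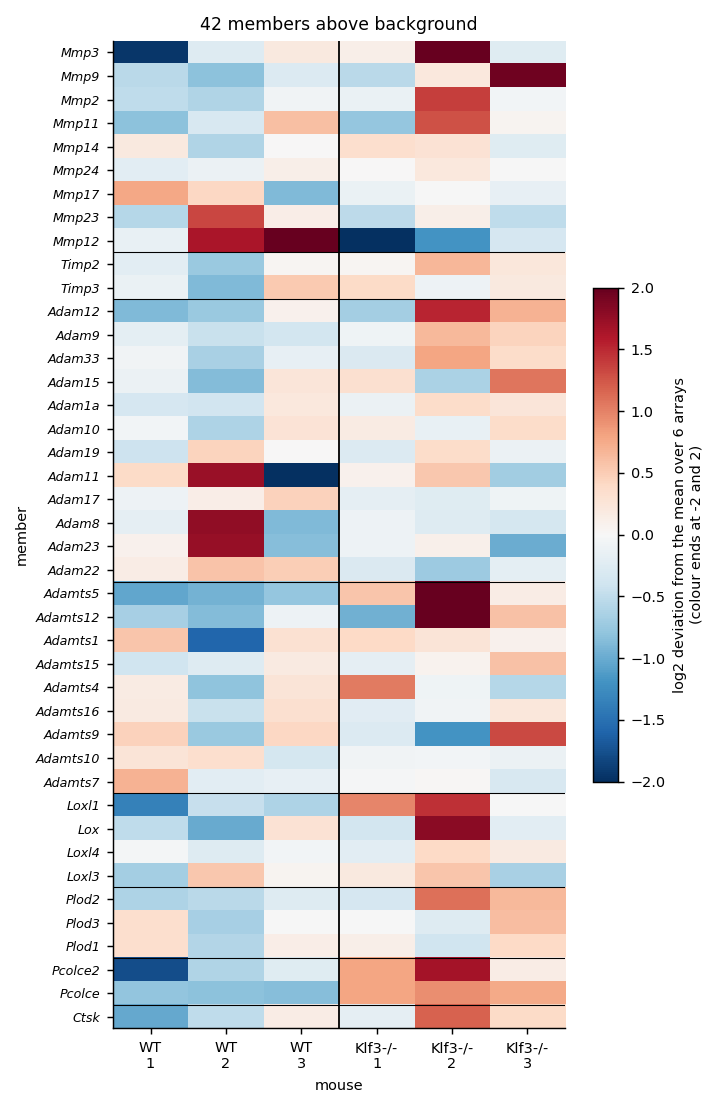
Heat map of the 42 genes above background (rows, by family) on the 6 arrays (columns), coloured by the log2 deviation from the gene's mean over 6 arrays, with colour ending at -2 and 2. Klf3-/- mouse 2 is the highest array for 19 rows, and the Pcolce row splits by genotype.

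Markers of other cell types also differed in level between the arrays. All 13 measured stromal fibroblast markers had positive fold changes, 8 of them at an unadjusted limma p under 0.05 and 7 without overlap, with a median of 0.98. Over all genes 44.8% were positive, 3.61% higher at that p and 4.84% higher without overlap. Their mean log2 intensity was 8.02 to 8.66 in WT and 9.03 to 10.07 in Klf3-/-, highest in mouse 2, which was also the highest array for Pcolce, Pcolce2, Loxl1, Lox, Adamts5, Mmp2 and Ctsk. Igfbp6, a stromal marker, had a log2 fold change of 1.88 and the same adjusted p as Pcolce (0.200). The 11 macrophage markers averaged 9.12 to 9.93 in WT and 9.57 to 10.90 in Klf3-/-, highest in mouse 3, as was Mmp9, with 10 of 11 fold changes positive. The 9 dendritic cell and MHC class II markers averaged 9.62 to 10.41 in WT and 9.23 to 9.37 in Klf3-/-, without overlap. Of their fold changes 8 of 9 were negative, in the direction of Mmp12 and Adam22. These markers were highest in WT mouse 2, as was Adam22, while Mmp12 was highest in WT mouse 3. Mast cell markers (5 measured) averaged 5.07 to 9.22 in WT and 6.40 to 10.09 in Klf3-/-. Like the stromal markers, they were highest in Klf3-/- mouse 2 and lowest in WT mouse 1. Epithelial markers (5 measured) averaged 4.75 to 6.13 in WT and 5.76 to 8.12 in Klf3-/-, highest in Klf3-/- mouse 3. Neutrophil (4 of 6 fold changes negative), endothelial (6 of 7), mural (4 of 5), and T and B cell (2 of 5) markers overlapped between genotypes. Of 4 adipocyte markers, 3 were below background. The part of any of these cell types in the differences above was not tested.

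**Figure D4:**
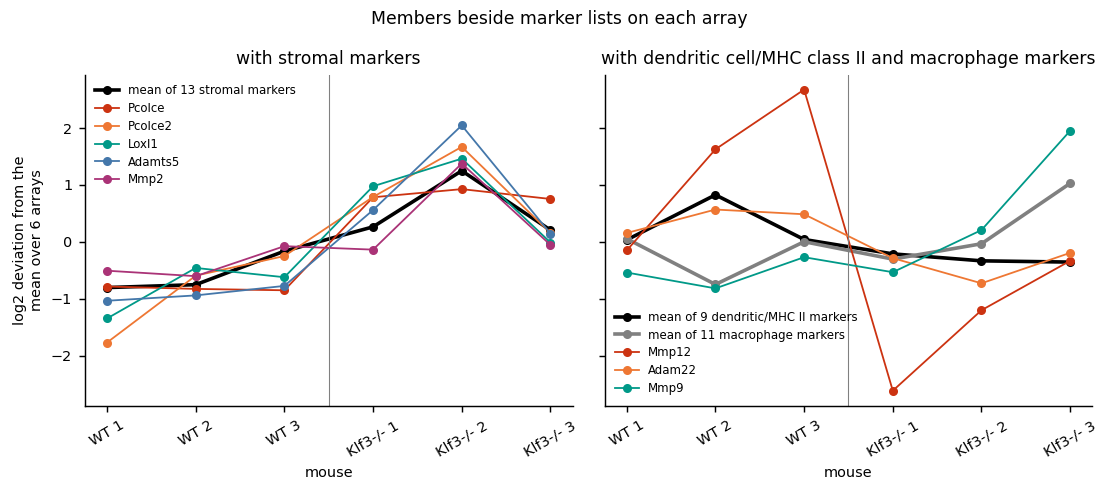
Log2 deviation from the mean over 6 arrays for named genes and for the mean of marker lists, on each array, with lines that only join the points of 1 gene or list. Stromal markers, Pcolce2, Loxl1, Adamts5 and Mmp2 are highest in Klf3-/- mouse 2, macrophage markers and Mmp9 in Klf3-/- mouse 3, and Mmp12 is lowest in Klf3-/- mouse 1.

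Genes that work beside these enzymes were counted in 7 lists, and none passed the adjusted threshold in the limma fit. These counts stand beside 44.8% positive fold changes over all genes. At an unadjusted p under 0.05 the shares of all genes were 3.61% (higher) and 2.47% (lower), and without overlap 4.84% and 6.55%. In lists this short, 1 gene is already a larger share than those at this p. In the plasminogen system and its serine proteases, 13 of 15 genes had positive fold changes (median 0.45), 5 were higher at an unadjusted p under 0.05 and 4 without overlap. Plau, the urokinase that activates plasmin, had a log2 fold change of 1.19 (SE 0.28), and Serping1, the C1 inhibitor, 1.07 (SE 0.32). Of 17 genes for collagen maturation, 11 were positive and 6 negative (median 0.05), and at that p 3 were higher and 1 lower. P3h4, part of a collagen-modifying complex, was at 1.07 (SE 0.32) and Colgalt1, which adds galactose to collagen, at -0.45 (SE 0.18). The 8 collagen and elastic fibre substrates of these enzymes had 7 positive fold changes (median 0.47) and none at that p, with Col5a2 at 1.10 (SE 0.47) and Col5a1 at 0.89 (SE 0.41), both chains of fibril-forming collagen V.

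Against the same shares over all genes (at an unadjusted p under 0.05, 3.61% higher with 2.47% lower), regulators of ADAM proteases had 7 of 10 positive fold changes (median 0.29), and an unadjusted p under 0.05 was found for 2 higher genes and 1 lower gene. Reck, a membrane-bound inhibitor of MMPs, was at 1.99 (SE 0.63) and Tspan33, a tetraspanin partner of ADAM10, at -1.75 (SE 0.59). Proteins shed by ADAMs had 6 of 14 positive (median -0.11) and 1 higher at that p, Egf (0.70, below background), with the chemokine Cxcl16 at -0.71 (SE 0.32) without overlap. Of 7 ADAMTS-like proteins, which lack the protease part, 6 were positive (median 0.12) and 1 was higher at that p, Adamtsl4 at 0.91 (SE 0.32), followed by Adamtsl5 at 0.78 (SE 0.35). The other cathepsins and the cystatins had 5 of 14 positive (median -0.10) and none at that p, with Ctsz at -0.51 (SE 0.25) and Cstb at -0.49 (SE 0.25).

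**Figure D5:**
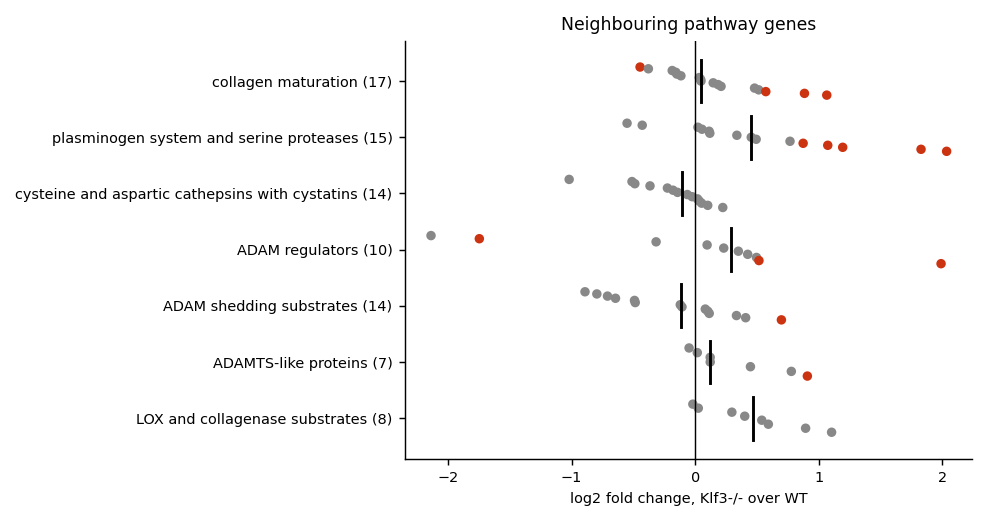
Log2 fold change (Klf3-/- over WT) of each gene in 7 lists of neighbouring genes, with red points at an unadjusted limma p under 0.05 and black bars for list medians. The plasminogen list has 5 red points to the right of 0, and the cathepsin and cystatin list has none.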

How the data were processed

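The sort kept live leukocytes (CD45+) with high side scatter that stained for CD11b, F4/80 and Siglec-F, and the authors processed the Affymetrix HT MG-430PM arrays in Partek Genomics Suite. The deposited values are linear intensities, 1 column per mouse, and the normalisation steps that made them are only partly stated. As arrays were on no common scale, log2 intensities were quantile-normalised and tested with limma 3.58.1 (lmFit, eBayes) in R 4.3.3. Genotype was the only term, with Benjamini-Hochberg adjustment over all 45037 probe sets (threshold 0.05). The two-way ANOVA of the paper was not run, as its second factor is not stated. The fit was tested on simulated data. Precision is limited by 3 arrays per genotype.

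The platform annotation gave 1 symbol for 28898 probe sets, several for 551 and none for 15588. All 72 symbols were found in the RefSeq table of GRCm38.p6. Promoter windows come from RefSeq.

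The genes and lists were chosen with earlier results of these data known. Values for every mouse are given for genes above background at an unadjusted p under 0.05 or without overlap, and for the 2 genes with the highest mean intensity in each family. Similar genes below background are named with their fold change, and of each neighbouring list the 2 genes with the smallest p are named.

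Per the labels, WT and Klf3-/- mice were litter-matched. The arrays that share a replicate number deviated together from their genotype means (r = 0.17, 0.23 and 0.21), beside -0.18 to -0.01 for arrays of different numbers. Deviations sum to 0 within each genotype, so the values for different numbers are not independent of those for equal numbers. The numbers were taken to pair the mice, but shared litters and shared processing cannot be told apart here. The main fit, its SEs and the permutation did not use this pairing, and a fit with the replicate as a block was an alternative. Others were the values as deposited, median centring, array weights, trend and robust fitting, a one-way analysis of variance, a pseudocount of 16, filters on dim or cross-hybridising probe sets, other choices of probe set and leaving out each array. Python 3.11.15, pandas 2.3.3 and matplotlib 3.10.9 were used for tables and figures.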

Additional observations from a re-analysis of the deposited data

How the results depend on the processing

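No alternative brought any of the 72 genes past the adjusted threshold. The smallest adjusted p of any of them ranged from 0.0961 (a gene's probe sets averaged) to 0.963 (without WT replicate 1). With the replicate number as a block it was 0.409, that of Mmp12 (limma unadjusted p = 2.7e-05, beside 0.0106 in the main fit). No gene passed the adjusted threshold there. At an unadjusted p under 0.05 the pairing gave 8 higher and 2 lower genes, with Ctsk and Loxl2 gained and Mmp16 lost. Over all 45037 probe sets it gave 1734 higher and 1478 lower, beside 1398 and 1077 in the main fit.

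The median log2 fold change of 0.08 became 0.24 on the values as deposited, where the median over all probe sets was 0.13 in place of -0.03, and 0.29 with dim probe sets left out. At an unadjusted p under 0.05, 1 gene was lower as deposited, beside 62 of all 45037 probe sets. Of the 5 genes lower without overlap, 1 was left as deposited and 2 with dim probe sets left out. The matching shares of all genes without overlap were not counted.

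Leaving out each array gave a median of 0.07 to 0.12. At an unadjusted p under 0.05, 5 to 11 genes were higher and 2 to 3 lower. Of all 45037 probe sets, 1128 to 1610 were higher and 883 to 1208 lower at that p. Without overlap 7 to 18 genes were higher and 5 to 11 lower, and the matching shares of all genes were not counted.

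Of 342 fold changes of the 19 named genes under 18 alternatives, 334 kept their sign and 8 turned it, in 5 genes. Leaving out each array, the range was -1.24 to 0.054 for Adam23, -0.18 to 0.89 for Adamts1, -0.19 to 0.30 for Plod1, -0.045 to 0.46 for Plod3 and -0.037 to 0.67 for Timp3. The sign turned without WT replicate 2 in all 5, and without Klf3-/- replicate 3 in Plod1 (-0.10) and Plod3 (-0.018). With array weights Plod1 was at -0.084. The cause was not tested. The number of arrays limits all of these comparisons.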
